A study of Mus musculus with 10 samples.

Results

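The genes described here encode the hepatic machinery that makes fatty acids from carbohydrate, together with Srebf1, the transcription factor gene that is its best known regulator. All probe sets annotated to exactly 1 of 10 gene symbols were taken from arrays of mouse liver: Srebf1, Thrsp, Mid1ip1, Slc25a1, Acly, Acss2, Acaca, Acacb, Fasn and Me1. They came to 22 of the 45037 probe sets tested. A probe set is a handful of short array probes that report on the same transcript, and the 10 genes stand among 18193 with a probe set of their own. A further Acss2 probe set carried a second symbol and was left out.

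The arrays measured liver RNA of 10 QSi5 mice, each on an array of its own, taken at peak lactation. The HGI group of 5 mice ate from pregnancy onward a diet of high glycaemic index, 51.4% of it glucose, with a gross energy of 15.6 MJ/kg. The LGI group of 5 mice ate over the same time a diet of low glycaemic index, 51.4% of it high-amylose starch, with 16.3 MJ/kg. Both groups were therefore of 1 strain and lactating, with neither a non-lactating group nor a group on another diet. The labels give a positive energy balance for HGI and a negative one for LGI, so diet and energy balance cannot be told apart. Age, litter size and feeding state at sampling are not given in the sources used here.

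Glucose reaches fatty acids by way of citrate, which leaves the mitochondrion and is split in the cytosol to acetyl-CoA. Acetyl-CoA carboxylase turns acetyl-CoA into malonyl-CoA, and fatty acid synthase joins these units into palmitate with NADPH as the reductant. Insulin raises these genes through SREBP-1c, a product of Srebf1, and glucose raises them through ChREBP. In lactation much of this synthesis takes place in the mammary gland, and the liver keeps a share of it.

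The start regions of 4 members are shown to set the control gene and its output side by side: Srebf1 itself, Thrsp, and the enzyme genes Acly and Fasn. Each sequence is the 250 bases before the start site in RefSeq (GRCm38.p6, strand -), and capitals mark the motifs CCAAT and GGGCGG on either strand. Srebf1 has 3 start sites in the table, and the one farthest downstream is shown.
Srebf1 chr11:60210472-60210721: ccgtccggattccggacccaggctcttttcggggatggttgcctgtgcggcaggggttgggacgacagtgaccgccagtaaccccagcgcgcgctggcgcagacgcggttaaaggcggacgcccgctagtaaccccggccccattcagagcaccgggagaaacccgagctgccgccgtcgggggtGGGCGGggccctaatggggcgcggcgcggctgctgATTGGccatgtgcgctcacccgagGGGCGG
Thrsp chr7:97417551-97417800: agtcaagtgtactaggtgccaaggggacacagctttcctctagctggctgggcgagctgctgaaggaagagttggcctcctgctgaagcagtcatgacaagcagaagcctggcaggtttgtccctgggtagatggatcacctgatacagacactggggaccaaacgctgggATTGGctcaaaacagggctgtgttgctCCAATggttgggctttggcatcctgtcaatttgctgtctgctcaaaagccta
Acly chr11:100528001-100528250: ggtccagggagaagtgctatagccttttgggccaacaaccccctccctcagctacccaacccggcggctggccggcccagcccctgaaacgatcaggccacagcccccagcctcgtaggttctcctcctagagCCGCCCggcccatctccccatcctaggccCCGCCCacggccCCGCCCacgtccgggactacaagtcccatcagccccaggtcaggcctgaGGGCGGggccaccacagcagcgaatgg
Fasn chr11:120824548-120824797: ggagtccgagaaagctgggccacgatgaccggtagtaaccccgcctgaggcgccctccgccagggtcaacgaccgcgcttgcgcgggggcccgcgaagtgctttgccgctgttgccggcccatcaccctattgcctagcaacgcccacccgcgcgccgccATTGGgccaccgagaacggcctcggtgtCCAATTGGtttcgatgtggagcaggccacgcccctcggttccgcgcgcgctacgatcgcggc

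The RefSeq table held 13 windows of 300 bases, 250 before and 50 after a start site, for the 10 members. All 10 genes matched, Srebf1 with 3 windows and Me1 with 2. A CCAAT box, the motif named for NF-Y, lay in 9 of the 13 windows, against 37.4% of all 32851 windows in the table. GGGCGG, named for Sp1, lay in 7 of 13, against 35.7% of all windows. The E-box CACGTG lay in 1 of 13, that of Slc25a1, against 7.15% of all windows. The sterol element TCACNCCAC lay in 0 of 13, against 1.24% of all windows. At so low a share, 0 of 13 cannot show that members lack sterol elements, and only this spelling was searched. In Fasn, 3 CCAAT boxes began at -90, -62 and -59 from the start site, and the last pair overlap on opposite strands. Thrsp had CCAAT boxes at -79 and -52 and no GGGCGG. In Acly the pattern was the reverse before the start site, with GGGCGG at -117, -88, -76 and -27 and its CCAAT box at 38. The Srebf1 window shown had both, CCAAT at -30 and GGGCGG at -65 and -6. These matches describe the letters of the windows, and no binding was measured here.

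Levels are log2 values from RMA, a method that normalizes arrays to a shared distribution, and every difference is HGI minus LGI. Of the 22 probe sets, 15 had a mean log2 of at least 6, and each gene had at least 1 of these. Of the other 7, 4 lay below the median of every array, at 3.91 to 3.97, 3 of them for Acly and 1 for Acaca. Where a gene had several probe sets, the one of the highest mean stands for it below. Levels are not compared between genes, since probe sets differ in how strongly they bind. In pieces of liver, fewer cells of a type and less RNA per cell cannot be told apart.

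No member passed the test between diets: 0 of 22 probe sets had an adjusted p under 0.05 by limma, where 0.0644% of all probe sets did. At an unadjusted p under 0.05 the count was 4, against 7.54% of all probe sets in either direction and 2.76% in the direction higher in HGI. The 4 were probe sets of Acaca (limma's unadjusted p = 0.00994), Acly (0.0234), Fasn (0.0457) and Acss2 (0.0464), each with a higher mean in HGI. An unmoderated two-sample test gave 1 at that level and 0 after adjustment. The groups overlapped at all 22 probe sets, while 1.67% of all probe sets separated without overlap. Of the 10 genes, 8 had a value above 0 and 2 below, with a median of 0.25. Over all 18193 genes 41.8% stood above 0 and the median was -0.03.

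The count of 4 stayed at 4 without HGI 5, LGI 1 or LGI 5 and was 3 without HGI 3. It came to 1 without HGI 2 or HGI 4, 2 without LGI 4, 6 without HGI 1, and 7 without LGI 2 or LGI 3. The counts of 7 include more than 1 probe set of Acly and of Acss2. The share of all probe sets at that level with an array left out is not given here, so these counts lack a background. The median of the 10 genes was 0.09 without LGI 4. With each array left out in turn the lowest adjusted p of any member was 0.287, so 0 passed under any of these.

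Srebf1, whose protein is the membrane-bound precursor of SREBP-1, was read by 1 probe set (1426690_a_at). Its levels in HGI mice 1 to 5 were 10.45, 9.76, 10.87, 11.12 and 10.63. In LGI mice 1 to 5 they were 10.71, 10.79, 10.97, 10.24 and 11.31. The lowest level was that of HGI 2 and the highest that of LGI 5, and the remaining mice of both diets lay among each other. The means were 10.57 ± 0.52 in HGI and 10.81 ± 0.39 in LGI (SD, n = 5 each), a difference of -0.24 with a 95% interval from -0.74 to 0.27 (limma adjusted p = 0.884). It was -0.04 without HGI 2 and -0.38 without LGI 4.

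Thrsp, the gene of the small lipogenic protein Spot 14, had levels in HGI mice 1 to 5 of 12.73, 11.97, 13.07, 13.24 and 12.64 (1424737_at). In the LGI mice they were 12.85, 13.15, 13.13, 11.36 and 13.12. One mouse of each diet, HGI 2 and LGI 4, stood below the rest, and the other mice overlapped. The difference was 0.01 with a 95% interval from -0.69 to 0.71 (limma adjusted p = 0.999), and -0.33 without LGI 4. At the second bright Thrsp probe set the difference was 0.07 (adjusted p = 0.984), and leaving out LGI 4 gave -0.35. A dim probe set of the gene stood at 0.09 (adjusted p = 0.929).

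Mid1ip1 encodes the relative of Spot 14 that binds acetyl-CoA carboxylase and promotes its polymerization. Its levels in HGI mice 1 to 5 were 8.54, 8.90, 9.29, 9.94 and 9.48 (1416840_at), and in LGI mice 9.44, 9.66, 9.58, 8.15 and 10.39. LGI mice held both the lowest level, in LGI 4, and the highest, in LGI 5. The difference was -0.21 with a 95% interval from -0.95 to 0.53 (limma adjusted p = 0.942). It was -0.53 without LGI 4, the most negative value of any member with 1 array left out, and 0.025 without LGI 5.

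**Figure D1:**
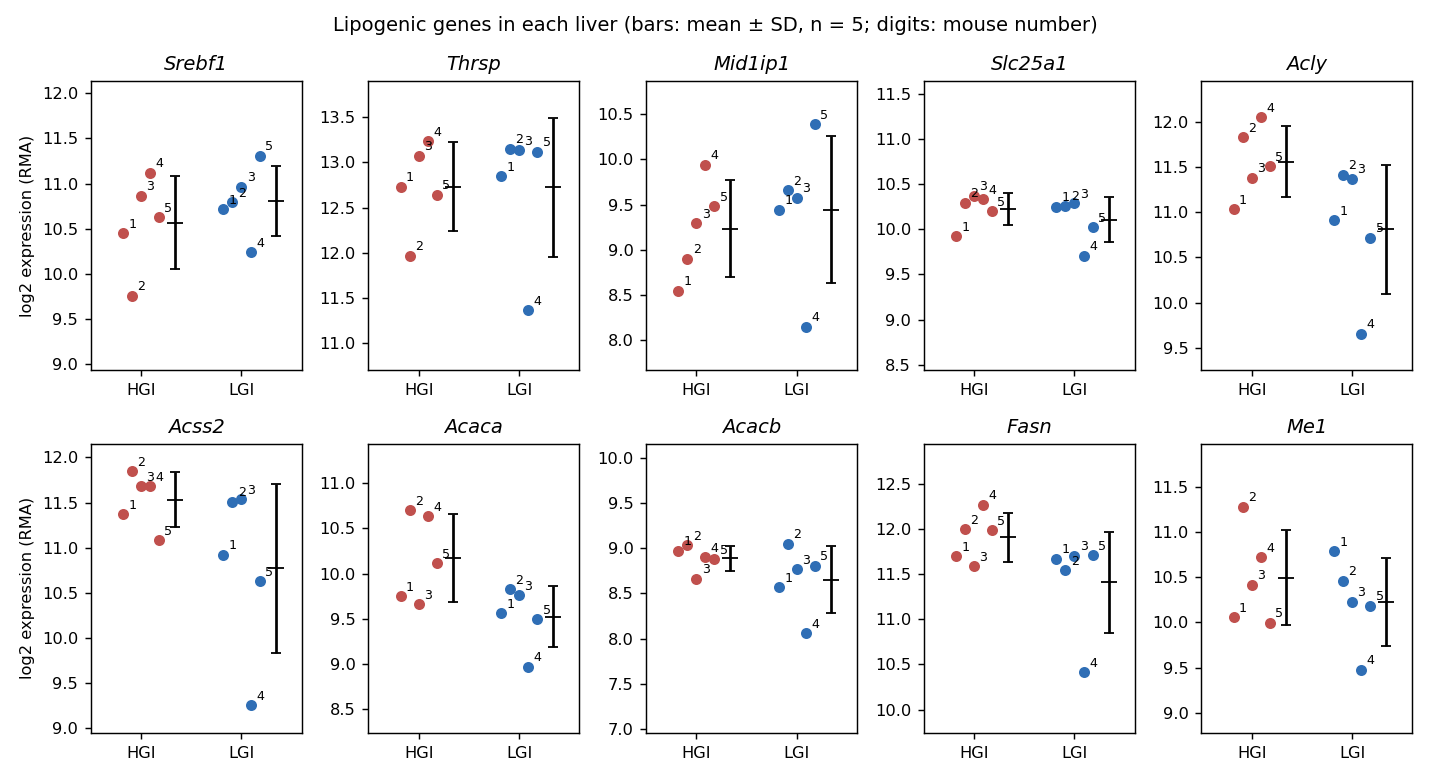
Log2 expression (RMA) of the 10 genes in each liver, HGI in red and LGI in blue, with the mouse number beside each point and the mean ± SD (n = 5) as a bar; each panel spans the same number of log2 units. LGI 4 is the lowest point in 9 of the 10 panels, and HGI 2 is the lowest in Srebf1.

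Slc25a1, the mitochondrial citrate carrier, varied least among the 10 genes. Its levels lay between 9.92 and 10.37 in HGI, with a median of 10.30, and between 9.71 and 10.29 in LGI, with a median of 10.25 (1428190_at). The difference was 0.12 with a 95% interval from -0.15 to 0.39 (limma adjusted p = 0.893), and 0.02 without LGI 4.

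Acly, ATP citrate lyase, splits the exported citrate. At its brightest probe set (1451666_at) the HGI mice 1 to 5 stood at 11.03, 11.83, 11.38, 12.05 and 11.51. The LGI mice stood at 10.91, 11.41, 11.37, 9.65 and 10.72. Mice LGI 1, LGI 4 and LGI 5 lay below every HGI mouse, and LGI 2 and LGI 3 within the HGI range. Acly was 1.68-fold higher in HGI (0.75, 95% interval 0.12 to 1.37), short of the threshold (limma adjusted p = 0.570). The other bright Acly probe sets stood at 0.61 and 0.84 (adjusted p = 0.697 and 0.673). Without LGI 4 the 3 bright values were 0.46, 0.35 and 0.46. Over all 10 arrays the 3 dim Acly probe sets stood at 0.07 to 0.12.

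Acss2, the cytosolic synthetase that makes acetyl-CoA from acetate, had levels in HGI mice 1 to 5 of 11.37, 11.85, 11.68, 11.68 and 11.09 (1422479_at). In the LGI mice they were 10.92, 11.51, 11.54, 9.26 and 10.63. Mouse LGI 4 lay more than 1 log2 unit below the next mouse. Acss2 was 1.70-fold higher in HGI (0.76, 95% interval 0.01 to 1.51; limma adjusted p = 0.655). The second bright probe set stood at 0.75 (adjusted p = 0.667), and a dim one at 0.12 (adjusted p = 0.944). Without LGI 4 the bright pair stood at 0.38 and 0.39.

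Acaca, acetyl-CoA carboxylase 1, makes the malonyl-CoA used for synthesis in the cytosol. Its HGI mice 1 to 5 stood at 9.75, 10.70, 9.66, 10.64 and 10.11, and its LGI mice at 9.56, 9.82, 9.76, 8.97 and 9.50 (1434185_at). Mice HGI 2, HGI 4 and HGI 5 lay above every LGI mouse, while HGI 1 and HGI 3 lay within the LGI range. Acaca was 1.57-fold higher in HGI (0.65, 95% interval 0.18 to 1.11), the smallest p of the members but short of the threshold (limma adjusted p = 0.479). With 1 array left out the value stayed between 0.51 and 0.78, with 0.51 without LGI 4 and 0.52 without HGI 2. Its dim probe set, below the median of every array, stood at 0.02.

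Acacb, acetyl-CoA carboxylase 2, sits at the outer mitochondrial membrane, where its malonyl-CoA restrains fatty acid import by Cpt1. Its levels lay between 8.66 and 9.03 in HGI, with a median of 8.90, and between 8.06 and 9.05 in LGI, with a median of 8.77 (1427052_at). The difference was 0.24 with a 95% interval from -0.09 to 0.57 (limma adjusted p = 0.783), and 0.09 without LGI 4. A dim Acacb probe set stood at 0.01 (adjusted p = 0.991).

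Fasn, fatty acid synthase, had levels in HGI mice 1 to 5 of 11.70, 12.00, 11.59, 12.27 and 11.98 (1423828_at). In LGI mice they were 11.67, 11.55, 11.70, 10.42 and 11.71. Mice HGI 2, HGI 4 and HGI 5 lay above every LGI mouse, and LGI 4 lay far below all others. Fasn was 1.41-fold higher in HGI (0.50, 95% interval 0.01 to 0.98; limma adjusted p = 0.655), and the difference was 0.25 without LGI 4.

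Me1, the cytosolic malic enzyme, supplies NADPH for the synthase. Its levels ran from 9.996 to 11.28 in HGI, with a median of 10.42, and from 9.47 to 10.79 in LGI, with a median of 10.23 (1430307_a_at). HGI 2 was the highest mouse and LGI 4 the lowest. The difference was 0.27 (95% interval -0.29 to 0.82; limma adjusted p = 0.883), 0.07 without HGI 2 and 0.08 without LGI 4. The other probe set stood at 0.26 (adjusted p = 0.812).

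**Figure D2:**
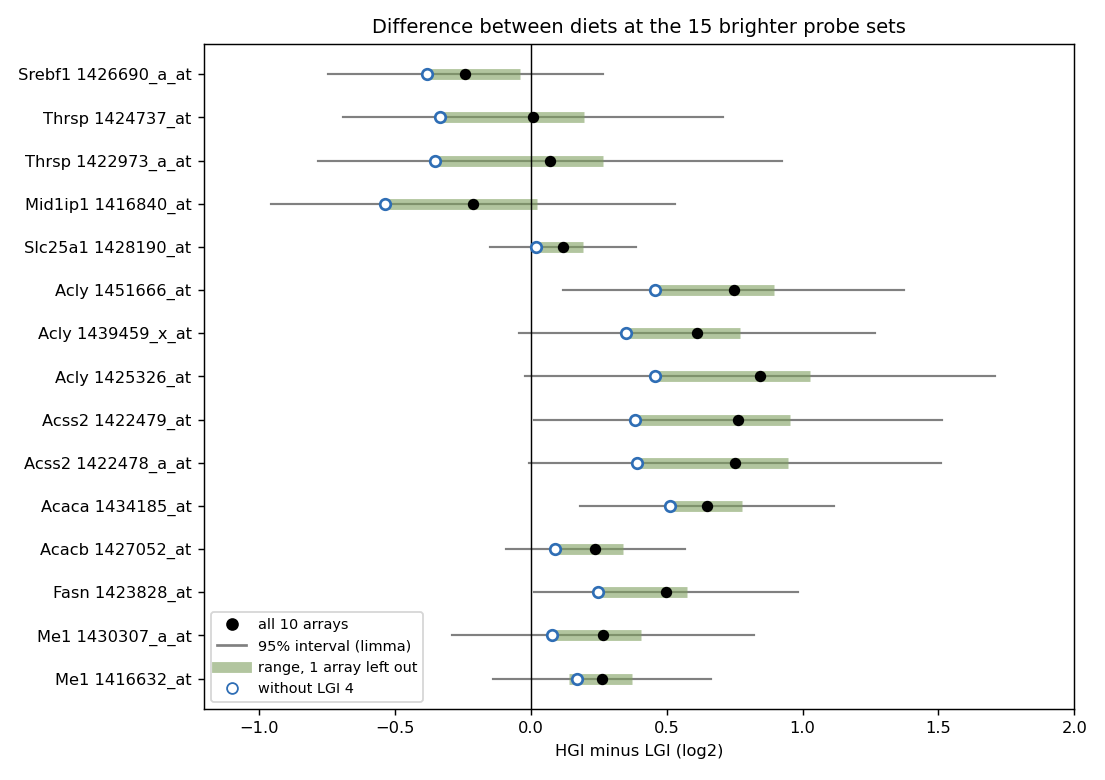
HGI minus LGI on the log2 scale (x axis) at the 15 member probe sets with a mean log2 of at least 6 (y axis): black points, all 10 arrays; grey lines, limma's 95% interval; green bars, the range with each array left out in turn; open circles, without LGI 4. Without LGI 4 the values of Acly, Acss2, Acaca and Fasn stay above 0 and those of both Thrsp probe sets turn negative.

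The array of LGI 4 stood low in this gene group, though not in it alone. It was the lowest of the 10 arrays at 14 of the 15 bright member probe sets, where it was the lowest at 13.5% of the 11472 bright probe sets in all. Among the 5 LGI arrays it was the lowest at 15 of 15, against 33.3% of all bright probe sets. In gene lists read below, it was lowest of the 10 at 9 of 14 genes of elongation, desaturation and esterification. The counts were 4 of 6 for glucose uptake and glycolysis and 4 of 7 for hepatocyte markers. They were 3 of 12 for citrate and acetyl-CoA supply and 2 of 10 for NADPH supply. For control of lipogenic factors it was 1 of 19, and for malonyl-CoA use 0 of 12. Its deviation from the mean of the 10 arrays was -1.90 in Acss2, -1.53 in Acly, -1.36 in Thrsp and -1.24 in Fasn, in log2 units. Its mean correlation with the arrays of its diet was the lowest too, at 0.988, where the other 9 arrays had 0.989 to 0.993. The 3' minus 5' difference of the Actb control probe sets, a sign of RNA quality, was highest in it (2.27, against 1.25 to 2.11 in the others). That of Gapdh was 0.87 in LGI 4 and 0.29 to 0.99 in the others. HGI 1 had the narrowest spread of values, with an SD of 2.16 against 2.26 to 2.31. The part of RNA quality in the low values of LGI 4 was not tested.

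Markers of liver cells were read beside these values. The 7 measured hepatocyte markers, such as Alb and Hnf4a, averaged 13.6 to 13.7 in HGI and 13.5 to 13.7 in LGI, with LGI 4 lowest. The 7 Kupffer cell and macrophage markers all stood above 0, with list means of 6.92 to 7.80 in HGI and 6.66 to 7.27 in LGI, where LGI 4 was highest. All 6 endothelial markers stood above 0 too, at 6.39 to 7.05 against 6.16 to 6.49. Over all genes 41.8% stood above 0. None of these markers passed, and their part in the results was not tested. Mammary epithelium and adipose tissue also make fatty acids. Mammary markers left little signal, and adipocyte markers were mixed. Of 8 mammary markers 7 lay below the median of every array, the caseins Csn1s1, Csn1s2a, Csn2 and Csn3 among them, and the list means were 3.27 to 3.55 in HGI and 3.26 to 3.46 in LGI. Of 6 adipocyte markers, Adipoq, Lep and Cidec lay below that median. Retn (means 5.24 in HGI and 5.31 in LGI), Lipe (5.32 and 5.64) and Pck1 (12.34 and 12.52) did not. The adipocyte list means, which include Pck1, were 5.08 to 5.19 in HGI and 5.17 to 5.32 in LGI. Stellate cell, bile duct and exocrine pancreas markers had medians of 0.01, 0.02 and 0.00, and the 3 erythroid markers a median of 1.34.

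Pairs of members differed in how closely they varied together across the mice. Srebf1 went with Thrsp over the 10 arrays (Pearson r = 0.81, permutation p = 0.00597, adjusted over 45 pairs 0.0326; Spearman rho = 0.85, permutation p = 0.00277, adjusted 0.0312). It went with Mid1ip1 as well (r = 0.80, permutation p = 0.00621, adjusted 0.0326; rho = 0.85, permutation p = 0.00266, adjusted 0.0312). Leaving out the 2 arrays farthest from the median of Srebf1, HGI 2 and LGI 5, gave 0.87 and 0.91. Without LGI 4 the r with Thrsp was 0.94 and that with Mid1ip1 0.80. Thrsp and Mid1ip1 had an r of 0.80 with each other (permutation p = 0.00510, adjusted 0.0326) and 0.62 without the 2 farthest arrays, HGI 2 and LGI 4 (rho = 0.82, permutation p = 0.00545, adjusted 0.0490). The correlations were computed for all 45 pairs after the values were seen, and genes on 1 array share its normalization.

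Pairs of enzyme genes came next. Acaca and Acly had an r of 0.91 (permutation p = 3e-05, adjusted over 45 pairs 0.00135; rho = 0.95, permutation p = 0.00015, adjusted 0.00675), and 0.94 without HGI 2 and HGI 4. Acly and Acss2 had 0.93 (permutation p = 0.00051, adjusted 0.00885; rho = 0.78, permutation p = 0.0108, adjusted 0.0810), and 0.81 without HGI 4 and LGI 4. Fasn and Acaca had 0.84 (permutation p = 0.00059, adjusted 0.00885; rho = 0.67, permutation p = 0.0382, adjusted 0.156), and 0.78 without HGI 4 and LGI 4. Over all 21 pairs of the 7 enzyme and carrier genes the median r was 0.76. By Pearson 11 of the 21 passed the adjustment, and by Spearman 2 did, Acaca with Acly and Acss2 with Slc25a1. The share of all gene pairs on these arrays that reach such values is not given here. The counts therefore do not show a likeness particular to these genes. Without LGI 4 the median was 0.47 and the lowest r -0.23. Other pairs rested on the 2 farthest arrays. Without HGI 4 and LGI 4, Fasn with Acss2 went from 0.83 to 0.05 and Fasn with Slc25a1 from 0.73 to -0.01.

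The relation of Srebf1 to the enzyme genes depended on single mice and on the pooling of the diets. The r of Srebf1 with the 7 enzyme and carrier genes ran from -0.16 to 0.25, with 0 of 7 pairs past the adjustment and permutation p-values from 0.455 to 0.797 (rho -0.12 to 0.33, permutation p from 0.350 to 0.972). Without HGI 2 and LGI 5, the 2 arrays farthest from the median of Srebf1, it ran from 0.54 to 0.91. Those higher values keep LGI 4, and without LGI 4 and HGI 2 the r with the 7 genes ran from -0.15 to 0.25. Without LGI 4 alone it ran from -0.52 to -0.04. Thrsp had an r of 0.22 to 0.63 with the same 7 genes (median 0.56) and Mid1ip1 0.27 to 0.60 (median 0.45), with 0 of 7 pairs past the adjustment for either. Without LGI 4 these ran from -0.48 to 0.06 and from -0.46 to 0.15. All of these values pool the diets, so differences between the diet means enter them. With the mean of each diet taken off, over the 10 arrays, the r of Srebf1 with the 7 genes ran from -0.09 to 0.49. That of Thrsp then ran from 0.27 to 0.74 and that of Mid1ip1 from 0.38 to 0.83. These values keep LGI 4 and were not tested. HGI 2 had the lowest Srebf1 of the 10 mice, at -0.93 from the mean of all arrays, and the highest Acaca and Me1, at 0.86 and 0.92 from it. LGI 5 had the highest Srebf1 and Mid1ip1, at 0.62 and 1.05 from the mean, with Acly at -0.47 and Acss2 at -0.52.

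**Figure D3:**
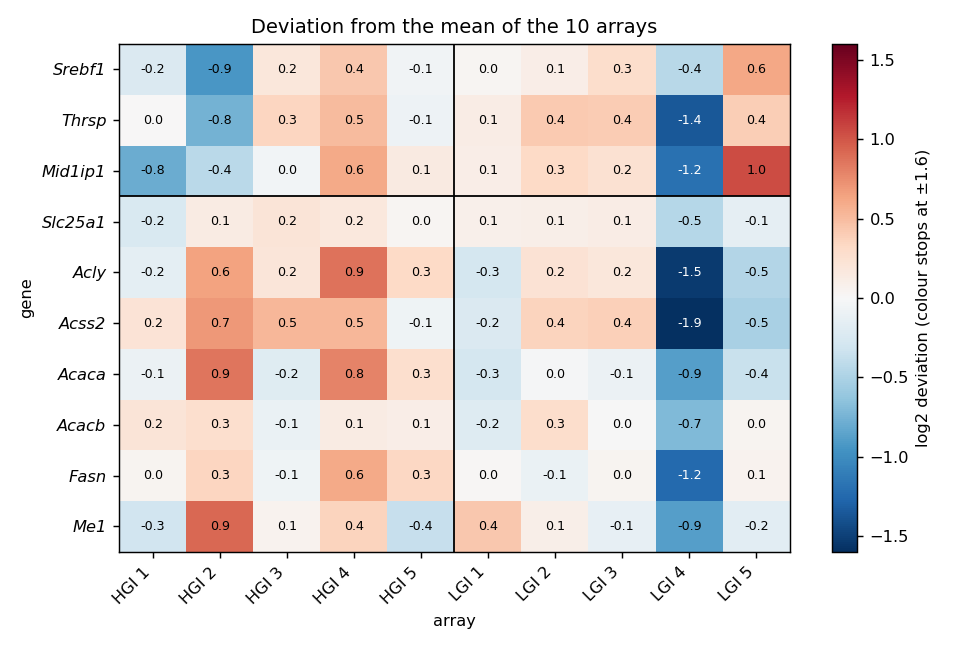
Deviation of each gene (rows) in each array (columns) from its mean over the 10 arrays, in log2 units, red above and blue below; lines part HGI from LGI arrays and Srebf1, Thrsp and Mid1ip1 from the enzyme and carrier genes. LGI 4 is blue in every row, and HGI 2 is blue in the upper 3 rows and red in the lower 7.

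The value of each gene was next set against Srebf1 on the same array, a comparison added after the values were seen. It asks whether the diets differ in a gene relative to Srebf1 RNA, and the active SREBP-1c protein was not measured. Only an effect that moves both by the same amount cancels. That of LGI 4 did not, at -0.44 from the mean in Srebf1 and -1.24 in Fasn. The Srebf1 difference of -0.24 enters each value with its sign turned. Fasn minus Srebf1 in HGI mice 1 to 5 was 1.24, 2.24, 0.72, 1.15 and 1.35, and in LGI mice 0.96, 0.75, 0.74, 0.18 and 0.40. Only HGI 3 lay within the LGI range. HGI exceeded LGI by 0.74 in this measure (exact permutation test, two-sided, p = 0.0317, adjusted over 9 genes 0.0952). For Acaca it was 0.89 (exact permutation p = 0.0317, adjusted 0.0952), and for Acly 0.99 (exact permutation p = 0.0238, adjusted 0.0952). For Acss2 it was 1.00 (exact permutation p = 0.0556, adjusted 0.125). None of the 9 passed the adjustment over the 10 mice, and the smallest unadjusted p that 5 against 5 mice can give is 0.00794.

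HGI 3 was the only HGI mouse within the LGI range for Fasn and for Acaca. Leaving it out therefore separated the groups fully, which gives the smallest p possible (exact permutation p = 0.00794 for both). At that floor Fasn and Acaca passed the threshold, at 0.89 and 1.09 (exact permutation test, adjusted p = 0.0357 for both). Since the mouse left out was the one that overlapped, this adds no support for a difference. Without LGI 4 the differences were 0.63 for Fasn, 0.89 for Acaca, 0.84 for Acly and 0.77 for Acss2. Without HGI 2 they were 0.51, 0.55, 0.72 and 0.72 (exact permutation p = 0.0556, 0.0635, 0.0556 and 0.135). The other enzyme and carrier genes stood at 0.48 for Acacb, 0.51 for Me1 and 0.36 for Slc25a1 (exact permutation p = 0.206, 0.341 and 0.310). Me1 dropped to 0.11 and Slc25a1 to 0.14 without HGI 2. Thrsp minus Srebf1 was nearly constant in HGI (2.16 ± 0.10, SD, n = 5) and lay at 1.92 ± 0.49 in LGI, with LGI 4 at 1.12 and the other LGI mice at 1.81 to 2.36. Its difference was 0.25 (exact permutation p = 0.349) and 0.05 without LGI 4. For Mid1ip1 the difference was 0.03 (exact permutation p = 0.929).

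**Figure D4:**
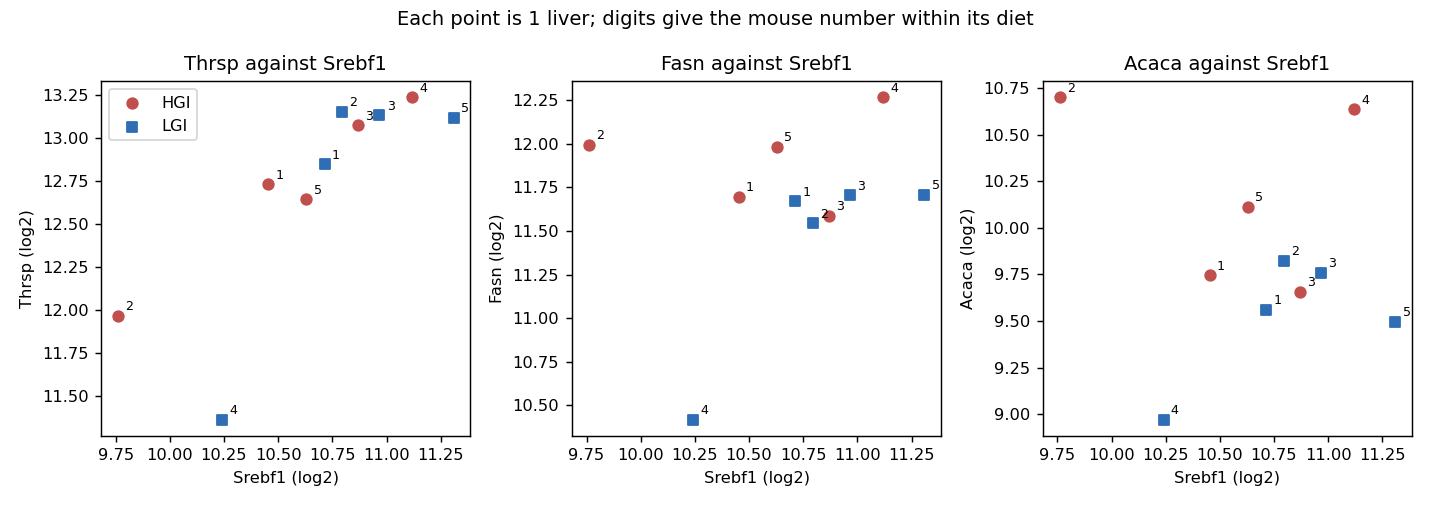
Log2 expression of Thrsp, Fasn and Acaca (y axes) against that of Srebf1 (x axes), 1 point per liver, HGI as red circles and LGI as blue squares with the mouse number. Thrsp lies along a line with Srebf1 from HGI 2 to the mice with the most Srebf1 (r = 0.81), with LGI 4 below it, while Fasn and Acaca do not (r = 0.25 and -0.16).

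Genes upstream, downstream and beside the members were read from 6 lists of 83 genes, of which 73 had a probe set of their own. None of the 73 passed by limma, at the background of 0.0644% of all probe sets. In the control of SREBP and other lipogenic factors, 0 of 19 measured genes passed and 11 stood above 0, against 41.8% of all genes. The median was 0.02 and 1 had an unadjusted p under 0.05, against 7.54% of all probe sets. Scap, the escort of the SREBP precursors, stood at 0.56 (adjusted p = 0.615), and its level in LGI 4 was 9.32 against an LGI mean of 10.34. Leaving that mouse out gave 0.30. Insig2, which holds the precursor in the endoplasmic reticulum, stood at 0.20, or 0.31 without LGI 4 (adjusted p = 0.838 over the 10 mice), Pparg at 0.15 (adjusted p = 0.884) and Srebf2 at -0.15 (adjusted p = 0.823).

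Among 14 genes of elongation, desaturation and esterification, 0 passed, 10 stood above 0 (41.8% of all genes did) and 7 had an unadjusted p under 0.05 (7.54% of all probe sets did). Their median was 0.31, and 0.20 without LGI 4, which was the lowest array at 9 of the 14. Pnpla3, an SREBP-1c target, stood at 1.66 (adjusted p = 0.469), Elovl6, the elongase of palmitate, at 0.82 (adjusted p = 0.545), Gpam at 0.66 (adjusted p = 0.207) and Lpin1 at 0.66 (adjusted p = 0.562). Without LGI 4, Pnpla3 stood at 1.11 and Elovl6 at 0.53. Fads2, the delta-6 desaturase, came closest to the threshold (0.59, adjusted p = 0.0666) and passed without HGI 1 (adjusted p = 0.0452). Its neighbour in the pathway, the delta-5 desaturase Fads1, stood at 0.63 (adjusted p = 0.121) and passed without LGI 4 (adjusted p = 0.0496). Both are named here after their values were seen. Scd1, a classic SREBP-1c target, stood at 0.12 (adjusted p = 0.827), again outside the naming rule.

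For NADPH supply 0 of 10 passed, with a median of 0.00, 2 unadjusted p under 0.05, and Rpia at 0.38, Pgd at 0.34, Nnt at 0.19 and the dim Me2 at -0.12 (adjusted p = 0.578, 0.647, 0.822 and 0.829). For citrate and acetyl-CoA supply 0 of 12 passed, 9 stood below 0, the median was -0.11 and 5 had an unadjusted p under 0.05. Slc25a10, the dicarboxylate carrier, stood at -0.51 (adjusted p = 0.211), Pcx, pyruvate carboxylase, at -0.34 (adjusted p = 0.570), Dlat at 0.37 (adjusted p = 0.650) and Cs, citrate synthase, at 0.35 (adjusted p = 0.507). Without LGI 4, Pcx stood at -0.22 and Dlat at 0.21. For glucose uptake and glycolysis 0 of 6 passed, 2 had an unadjusted p under 0.05, and the median was 0.27, which became 0.06 without LGI 4. Pklr stood at 0.88 (adjusted p = 0.563), Pfkl at 0.47 (adjusted p = 0.586), Slc2a2 at 0.30 (adjusted p = 0.878) and Gckr at 0.24 (adjusted p = 0.728). Without LGI 4, Pklr stood at 0.50 and Slc2a2 turned to -0.04. For the use of malonyl-CoA and the control of the carboxylases 0 of 12 passed, the median was -0.05 and 1 had an unadjusted p under 0.05. Mlycd, malonyl-CoA decarboxylase, stood at -0.24 (adjusted p = 0.749), Trib3 at -0.23 (adjusted p = 0.881), and the AMPK subunits Prkab1 at -0.23 (adjusted p = 0.616) and Prkab2 at -0.18 (adjusted p = 0.742). Without LGI 4, Mlycd stood at -0.12 and Trib3 at -0.15. These counts of unadjusted p stand beside the same 7.54% of all probe sets. The count below 0 stands beside 41.8% of all genes above 0. An unmoderated test called 0 genes of these lists.

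The 8 genes most like the average of the 10 members over the 10 arrays were named by a rule, from 7025 further bright genes. They were Selenop, Ugp2, Klb, Capn15, Slc2a2, Sc5d, Ugt2a3 and Sucnr1, with a Pearson r from 0.95 to 0.96 and a Spearman rho from 0.64 to 0.95. The likeness is a description of the highest values among many and has no p. Without LGI 4 the r ran from 0.63 to 0.82. Slc2a2, the hepatic glucose transporter GLUT2, was at 9.82 in LGI 4 and at 11.1 or more in the others. Sc5d, an enzyme of the last steps of cholesterol synthesis, had the highest rho and was at 9.63 in LGI 4 and 10.54 or more in the others. Between diets these genes stood at 0.03 to 0.30, with adjusted p-values from 0.866 to 0.958.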

How the data were processed

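Liver RNA was biotin-labelled (one-cycle protocol) and hybridised to Affymetrix arrays, per the labels' protocols. The authors deposited 1 log2 expression value per probe set and array. The submitters' processing notes name RMA and R 2.6.1. The scale was checked on the values, and the per-gene levels were not centred. No genome build is given in the sources used here.

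Of 45101 probe sets, 64 controls were left out and 45037 were tested. Symbols came from the platform annotation, updated through gene IDs in RefSeq (GRCm38.p6, names and promoter sequences): 34945 probe sets had 1 symbol, 932 had several and 9160 had none. The 2 diets were compared in limma 3.58.1 (R 4.3.3; lmFit, eBayes, no covariates, no filter), with Benjamini-Hochberg adjustment over all probe sets and a threshold of 0.05. Member values are rows of that fit. Within-array differences used exact permutation over 252 assignments, and correlations 100000 permutations. Named genes were all members, up to 4 genes of the largest difference per pathway list, and the 8 most alike. The members and lists were chosen with earlier results of these data known. Data were simulated from these arrays for this comparison (45037 probe sets). There 86% of 100 probe sets changed 2-fold and 99% of 100 changed 4-fold were recovered, with 7 false calls among 192. The changed probe sets all had a mean log2 of at least 6. Values were drawn for each probe set on its own, without an effect shared across an array. The simulation therefore does not show what the measured arrays could recover. The measured arrays gave 29 calls. Recovery at the member probe sets was not tested. Over the 10 genes the standard error of the difference ran from 0.12 for Slc25a1 to 0.35 for Acss2, in log2 units.

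Alternatives were filters on dim probe sets, renormalization, variance models, array weights, 1 probe set per gene or their mean, a replicate block, an unmoderated test and leaving out arrays. Same-numbered mice did not deviate together (correlations -0.05 to 0.07), so numbers were not treated as pairs. A planned comparison of protein sequences was not run. Precision is limited by having 5 arrays per diet. The p-values set a difference against the spread between these mice, each read by 1 array. In limma that spread is moderated over all probe sets.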

Additional observations from a re-analysis of the deposited data

Results flagged for a closer look

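In 3 of 44 checks of a member probe set within 1 diet, 1 mouse lay far from the other 4, and all 3 were LGI 4. Chance alone sets apart about 1 group in 20, and 3 of 44 is near that rate. The flagged Thrsp probe sets read 1 gene in the same mouse. The share over all probe sets of these arrays is not given here. Fasn was 10.42 in LGI 4, against 11.55 to 11.71 in the other LGI mice. Thrsp was 11.36 in LGI 4 against 12.85 to 13.15 at its brighter probe set, and 9.73 against 11.70 to 11.97 at the second.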

How the results depend on the processing

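No member passed under any of the 21 alternatives (lowest adjusted p 0.287). Of 427 member values under them, 405 kept their direction and 22 reversed, at 6 probe sets. With array weights the reversed values were -0.012 for the dim Acaca probe set, -0.0033 for the dim Acacb one, and -0.19 and -0.17 for Thrsp. Without HGI 1 and LGI 4 they were -0.019 for the dim Acaca and -0.33 and -0.34 for Thrsp. With 1 array left out, the ranges were -0.089 to 0.12 and -0.039 to 0.053 for the dim Acaca and Acacb, -0.53 to 0.025 for Mid1ip1, -0.33 to 0.20, -0.35 to 0.27 and -0.011 to 0.15 for Thrsp, and -0.15 to 0.17 for Mid1ip1 minus Srebf1. The cause was not tested.

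Calls over all probe sets, 29 as reported (17 higher), were 63 after renewed quantile normalization, 17 after median centring (13 higher), 64 with array weights, 1 in the unmoderated test, 58 without HGI 1 and LGI 4, and 5 to 49 with 1 array left out. With the replicate block they were 33, with 0 members called. Among listed pathway and marker genes, 0 passed as reported. One passed with a mean log2 of at least 6 (Fads2, adjusted p = 0.0436), and 1 each at or above the median signal, with the replicate block and with probe sets averaged (Slc4a1). There were 2 after renewed quantile normalization, with array weights and with 1 probe set per gene (Fads2 and Slc4a1), 2 without HGI 1 and LGI 4 (Fads1 and Fads2), and 0 to 2 with 1 array left out. The lowest adjusted p of Fads2 by limma was 0.0149, after renewed quantile normalization. Outside the settings named here for it and the fit without HGI 1, Fads2 did not pass. Dim probe sets, 7 of the 22 members, limit what can be read from them.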
